A study of Arabidopsis thaliana with 24 samples.

Results

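The genes described here are 10 Arabidopsis thaliana loci of 38194 features in the count table, taken by locus number. They are 3 jacalin-type lectin genes (AT1G52000, MBP2 and MBP1) and 7 genes known as outputs or enzymes of the jasmonate pathway (VSP1, VSP2, LOX2, AOS, TAT3, CORI3 and PDF1.2). They were proposed with their difference between treatments before cordycepin already known, so values at 0 min are a description without a test, and tests are given only for the libraries of later times and for change over time. All 10 entered each test between treatments, but not all through both groups. AT1G52000, LOX2, AOS, TAT3 and CORI3 reached the count minimum in all 3 stimulus and all 3 mock libraries at each time, while MBP2 reached it in 0 of 3 stimulus libraries and in 3 of 3 mock libraries. Depending on the time, VSP1 reached it in 1, VSP2 in 1 or 2 and MBP1 in 2 or 3 of 3 stimulus libraries. PDF1.2 reached it in 2 or 3 libraries of each group.

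Leaves 1 and 2 of Columbia-0 plants, 10 d old and grown in continuous light, were detached, surface sterilised and shaken at 21 °C for 8 h in a salt buffer with 5.0% glucose and 0.2% dimethyl sulfoxide. In the stimulus groups the buffer also held bikinin at 20 µM, kinetin, a cytokinin, at 0.5 µg/mL and 2,4-dichlorophenoxyacetic acid, an auxin analogue, at 2.5 µg/mL, while the mock groups had none of these. Bikinin inhibits the GSK3-like kinases that restrain brassinosteroid signalling, and the submitters describe the mixture as a transdifferentiation treatment. Cordycepin (1 mM), a nucleoside that ends growing RNA chains, was then added to all groups, and leaves were frozen 0, 15, 60 or 240 min later. Each of the 8 groups had 3 libraries, numbered 2, 3 and 4, each from a pool of 18 to 20 leaves, so all comparisons rest on wounded, floating leaves in sugar. Nothing in the labels says that libraries of 1 number came from separate plantings, and p-values measure the spread between these pools.

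Jasmonates are lipid-derived hormones made after wounding, starting in the chloroplast with a lipoxygenase and allene oxide synthase. The active conjugate joins the receptor COI1 to JAZ repressors, which are then destroyed, and MYC transcription factors are released to raise genes such as VSP2 and LOX2. A second branch, shared with ethylene and run by ERF factors, raises defensins such as PDF1.2. Jacalin-type lectins bind sugars, and the myrosinase-binding members are found in complexes with myrosinases, the enzymes that split glucosinolates when a leaf is crushed.

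Total counts lay between 24021278 and 34166478 per library. Levels are given as CPM, reads scaled to a common library size after trimmed-mean (TMM) normalisation, and a count of 3 equals 0.0727 to 0.179 CPM, which is counting error only. Chi-square per degree of freedom over the 24 pairs of replicates ran from 6.52 to 222, so no pair was a copy. The libraries differed in the levels of clock genes: a score of 5 evening genes minus 3 morning genes reached at least 0.73 in 8 libraries, while the remaining 16 had at most 0.155. These 8 were mock replicate 3 at 0, 15 and 60 min, mock replicate 4 at 240 min, stimulus replicate 3 at 15, 60 and 240 min, and stimulus replicate 4 at 240 min. Time labels also sat poorly with RNA loss in some series: the median log2 change since 0 min of 100 fast-declining features, chosen on stimulus replicate 2, reached −2.03 in stimulus replicate 3 and −2.72 in stimulus replicate 4 at 240 min. At the same label it was −3.20 in mock replicate 4 but −0.51 in mock replicate 3, which had reached −1.92 at 60 min, and −0.29 in mock replicate 2.

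The 3 jacalin genes lie next to each other on chromosome 1, within 19704 bases of the minus strand and with 2 pseudogenes between them. AT1G52000 runs from 19333088 to 19336135, MBP2 (AT1G52030) from 19345871 to 19349088 and MBP1 (AT1G52040) from 19350314 to 19352791 in the RefSeq annotation of TAIR10.1. VSP2 (AT5G24770, 8500468 to 8502224) and VSP1 (AT5G24780, 8507590 to 8509201) are neighbours on the minus strand of chromosome 5. That chromosome also holds AOS (AT5G42650, 17097564 to 17099595) and PDF1.2 (AT5G44420, 17906968 to 17907638), both on the minus strand. LOX2 (AT3G45140) spans 16525245 to 16529352 of chromosome 3 on the plus strand, TAT3 (AT2G24850) 10582074 to 10585216 of chromosome 2 on the minus strand, and CORI3 (AT4G23600) 12310379 to 12313212 of chromosome 4 on the plus strand. None overlaps another annotated gene. Of the 50-base windows of exon sequence, 24 in MBP1 recur in MBP2 (1.54% of MBP1's windows and 0.83% of MBP2's), 5 are shared by VSP1 and VSP2, and 3 in PDF1.2 recur in AT5G44430, so reads of these pairs could rarely be confused.

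The 300 bases before the annotated start were searched on both strands for 3 motifs that do not overlap each other in these windows. They were the G-box CACGTG, a G-box variant that reads CACATG on one strand and hence CATGTG when found on the other, and the box of ERF targets that reads GCCGCC, all elements that MYC and ERF proteins are known to bind. The variant was present before 6 of the 10 genes, against 13.1% of 27443 promoters of that length. CACGTG stood before MBP1 and AOS (7.09% of all promoters), and GCCGCC before PDF1.2 alone among the 10 (2.26%). No motif was found in the window of VSP1, VSP2 or CORI3, and none of the 10 windows overlaps another gene. The 6 promoters with the variant are printed 5′ to 3′ from RefSeq TAIR10.1, because they include the 3 lectin genes and the 1 gene that differed the other way, with motif letters in capitals.
AT1G52000 (chr1:19336136-19336435, minus strand): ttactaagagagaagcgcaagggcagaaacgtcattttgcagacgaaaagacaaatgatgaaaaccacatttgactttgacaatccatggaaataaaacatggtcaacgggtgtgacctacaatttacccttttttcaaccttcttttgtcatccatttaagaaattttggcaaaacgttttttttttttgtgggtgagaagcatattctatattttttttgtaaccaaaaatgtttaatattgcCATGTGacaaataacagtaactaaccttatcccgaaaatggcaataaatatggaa
MBP2 (chr1:19349089-19349388, minus strand): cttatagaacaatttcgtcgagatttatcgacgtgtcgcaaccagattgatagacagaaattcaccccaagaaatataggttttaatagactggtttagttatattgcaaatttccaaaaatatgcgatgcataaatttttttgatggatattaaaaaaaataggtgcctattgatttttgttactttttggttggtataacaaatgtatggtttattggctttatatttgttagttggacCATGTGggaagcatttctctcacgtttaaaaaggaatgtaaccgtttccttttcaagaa
MBP1 (chr1:19352792-19353091, minus strand): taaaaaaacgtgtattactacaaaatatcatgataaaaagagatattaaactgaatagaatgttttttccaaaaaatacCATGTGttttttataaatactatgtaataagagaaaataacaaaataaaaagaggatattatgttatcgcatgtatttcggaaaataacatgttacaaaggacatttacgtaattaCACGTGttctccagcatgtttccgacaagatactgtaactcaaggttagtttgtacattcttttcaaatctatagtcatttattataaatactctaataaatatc
LOX2 (chr3:16524945-16525244, plus strand): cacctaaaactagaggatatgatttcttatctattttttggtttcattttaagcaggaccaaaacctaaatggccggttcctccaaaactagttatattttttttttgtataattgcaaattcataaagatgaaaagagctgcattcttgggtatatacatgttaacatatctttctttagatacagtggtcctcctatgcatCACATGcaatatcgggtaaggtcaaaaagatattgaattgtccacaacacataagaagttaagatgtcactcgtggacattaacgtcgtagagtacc
TAT3 (chr2:10585217-10585516, minus strand): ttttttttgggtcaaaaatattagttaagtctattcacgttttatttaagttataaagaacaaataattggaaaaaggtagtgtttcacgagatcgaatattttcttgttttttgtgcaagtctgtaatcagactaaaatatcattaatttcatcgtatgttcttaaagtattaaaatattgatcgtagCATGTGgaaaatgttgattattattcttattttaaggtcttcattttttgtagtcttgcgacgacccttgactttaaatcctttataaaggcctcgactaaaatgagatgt
PDF1.2 (chr5:17907639-17907938, minus strand): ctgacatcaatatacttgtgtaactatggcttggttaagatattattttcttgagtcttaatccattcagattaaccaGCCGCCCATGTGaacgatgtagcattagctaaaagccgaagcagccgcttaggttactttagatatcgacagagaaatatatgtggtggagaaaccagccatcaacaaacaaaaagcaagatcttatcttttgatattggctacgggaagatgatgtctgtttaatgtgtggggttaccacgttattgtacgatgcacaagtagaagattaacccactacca

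In AT1G52000 and MBP2 the variant lay close to the start, at 55 to 50 and 59 to 54 bases before it, and in TAT3 at 111 to 106 bases. MBP1 had CACGTG at 105 to 100 and the variant at 221 to 216 bases. In PDF1.2 the GCC box, at 222 to 217 bases, directly adjoined the variant at 216 to 211 without overlap. The G-box of AOS ended at the last base before its start. The presence of these letters did not separate the genes by direction, since TAT3 carries the same 6 letters as AT1G52000.

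Per kilobase of exon, LOX2 was the most abundant of the 10 in both treatments, with a median of 54.6 CPM per kb over the 12 stimulus libraries, against 367 over the 12 mock libraries. In mock leaves it was followed by CORI3 and AOS, whose ranges overlapped (medians 49.9 and 49.5 CPM per kb), then AT1G52000 (21.4), MBP1 (7.71) and VSP2 (5.85). The lowest 4 in mock leaves were PDF1.2, TAT3, MBP2 and VSP1, with medians of 1.06, 0.923, 0.917 and 0.788 CPM per kb and overlapping ranges. In stimulus leaves the order after LOX2 was AOS (19.1), TAT3 (15.6) and CORI3 (7.76), with PDF1.2 at 0.720 and AT1G52000 at 0.641 CPM per kb. MBP1, VSP2, VSP1 and MBP2 came last there, at 0.412, 0.238, 0.119 and 0.0302 CPM per kb. TAT3 thus stood at the third place in stimulus leaves, against the eighth in mock leaves.

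**Figure D1:**
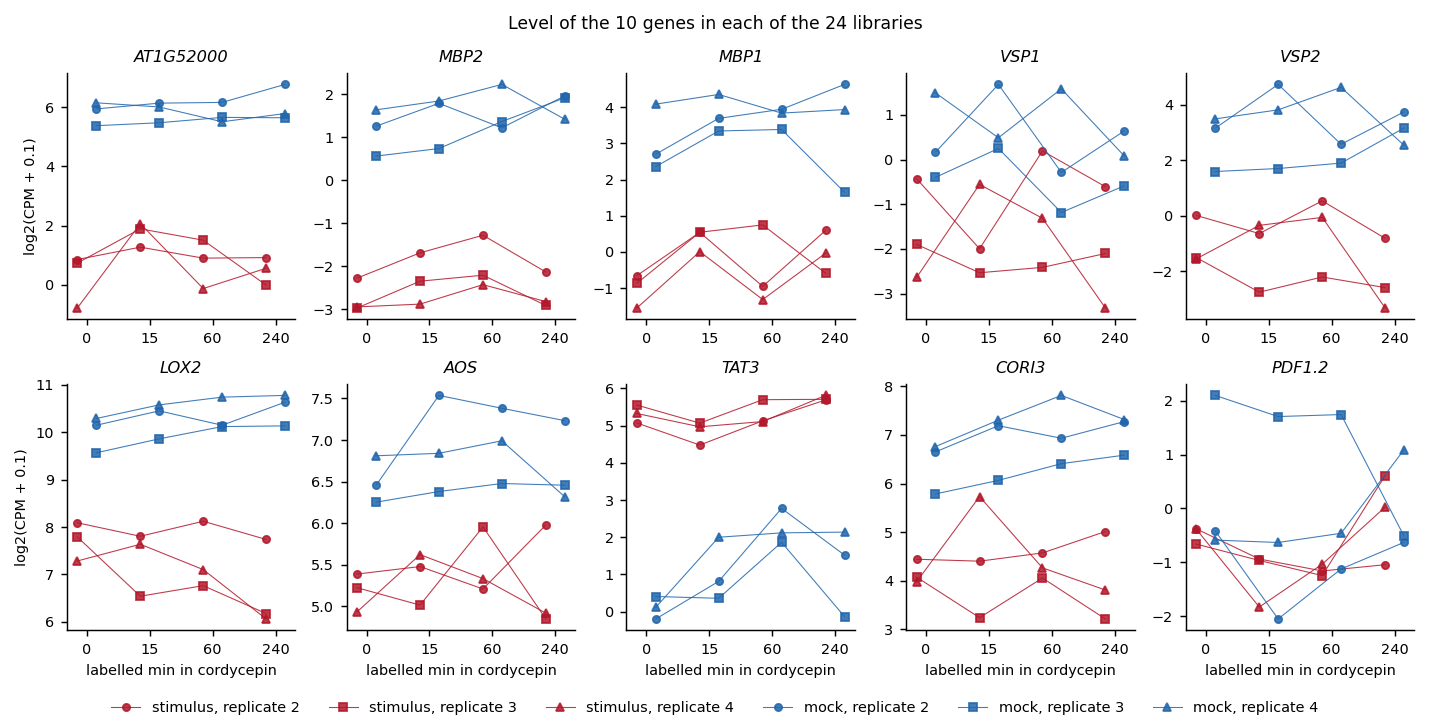
Level of each of the 10 genes, as log2 of CPM plus 0.1, against labelled minutes in cordycepin (evenly spaced, not to scale), with stimulus libraries in red drawn left of mock libraries in blue and a line joining the 4 libraries of a replicate number. The red and blue points are apart at every time in 8 panels, with red above blue for TAT3 alone, while VSP1 and PDF1.2 overlap at some times.

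At 0 min, the values that chose the genes, AT1G52000 had 1.71, 1.57 and 0.484 CPM in stimulus leaves (replicates 2, 3 and 4), against 61.2, 41.3 and 70.6 CPM in mock leaves. MBP1 had 0.535, 0.448 and 0.242 CPM in stimulus leaves, against 6.40, 5.03 and 16.9 CPM in mock leaves, and MBP2 had 4, 1 and 1 counts, against 74, 46 and 101 counts. The lectin genes were therefore 46.0-fold (AT1G52000), 40.4-fold (MBP2) and 23.1-fold (MBP1) lower in the stimulus means. VSP2 was 16.4-fold lower, VSP1 5.04-fold, CORI3 4.89-fold, LOX2 4.84-fold, PDF1.2 2.89-fold and AOS 2.52-fold. TAT3 went the other way, with 33.6, 46.9 and 40.1 CPM in stimulus leaves and 0.773, 1.23 and 0.983 CPM in mock leaves, a 40.4-fold higher mean. The groups did not overlap for 9 of the 10 genes, 8 of them lower (30.9% of 20323 features were lower without overlap and 34.4% higher, and the fit called 56.3% of features, 29.7% lower and 26.6% higher). PDF1.2 overlapped, and its difference rested on mock replicate 3: the log2 difference was −1.58 ± 0.82 (SE) with that library and −0.02 without it.

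Cordycepin is used to block new RNA, and the libraries of 15, 60 and 240 min ask whether the treatments also differed in other pools of leaves. These pools had the same 8 h of treatment before cordycepin. Differences that chose the genes at 0 min may carry over into them, so these tests are not independent of that choice. In mock replicate 2 the fast-declining features changed by only −0.27, −0.15 and −0.29 log2 units at these times. How far new RNA was blocked in each series was not tested. At 15 min, 6 of the 10 genes were lower in stimulus leaves and 1 was higher, where 8.81% of 20647 features were called lower and 7.12% higher. At 60 min the counts were again 6 lower and 1 higher (7.72% of 20512 features called, 5.08% lower and 2.64% higher), and at 240 min 6 lower and 1 higher (7.39% and 3.89% of 20338 features). AT1G52000, MBP2, MBP1 and LOX2 fell and TAT3 rose at all 3 times, by edgeR's quasi-likelihood test with Benjamini-Hochberg adjustment over all features and calls under 0.05. Each count of lower genes includes MBP2, which entered these tests through mock leaves alone. VSP2 reached the count minimum in 2 of 3 stimulus libraries at 15 min and 1 of 3 at 240 min, and MBP1 in 2 of 3 at 60 min. All 3 mock libraries reached it, so the entry of these genes also depended on mock leaves. VSP2, AOS and CORI3 were called lower at 2 of the 3 times each, and VSP1 and PDF1.2 at none. Over the 9 stimulus and 9 mock libraries of these times, 7 genes were lower and TAT3 higher with no overlap (7.36% and 5.66% of 19801 features). The same 8 stood apart over all 12 against 12 libraries (7.0% of 19281 features lower and 5.31% higher). That wider set includes the 0 min libraries whose values chose the genes, and MBP2 is among the 7 lower genes in both sets.

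Same-numbered libraries deviated together at 15 min in these data, which the labels do not state. With the number as a block in the edgeR test, 8 genes were lower and 1 higher at that time. VSP1 (adjusted p = 0.0489) and CORI3 (adjusted p = 0.00767) were the lower genes added. The block called 5501 of 20647 features, 2968 lower and 2533 higher, in place of 3290. Without the libraries of high clock score, 2 genes were called lower and 0 higher at 15 min (25 of 20954 features lower and 27 higher). At 60 min 0 genes were called, where edgeR called none of all features (3037 at an unadjusted p under 0.05). These fits had 2 libraries a treatment. At 240 min the setting left 1 stimulus library against 2 mock libraries, so its calls rest on a lone library assumed to vary like the others and are not given as support. The log2 differences of AT1G52000 under it were −4.41 and −5.49 at 15 and 60 min (adjusted p = 0.042 and 0.11), and −5.47 at 240 min.

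**Figure D2:**
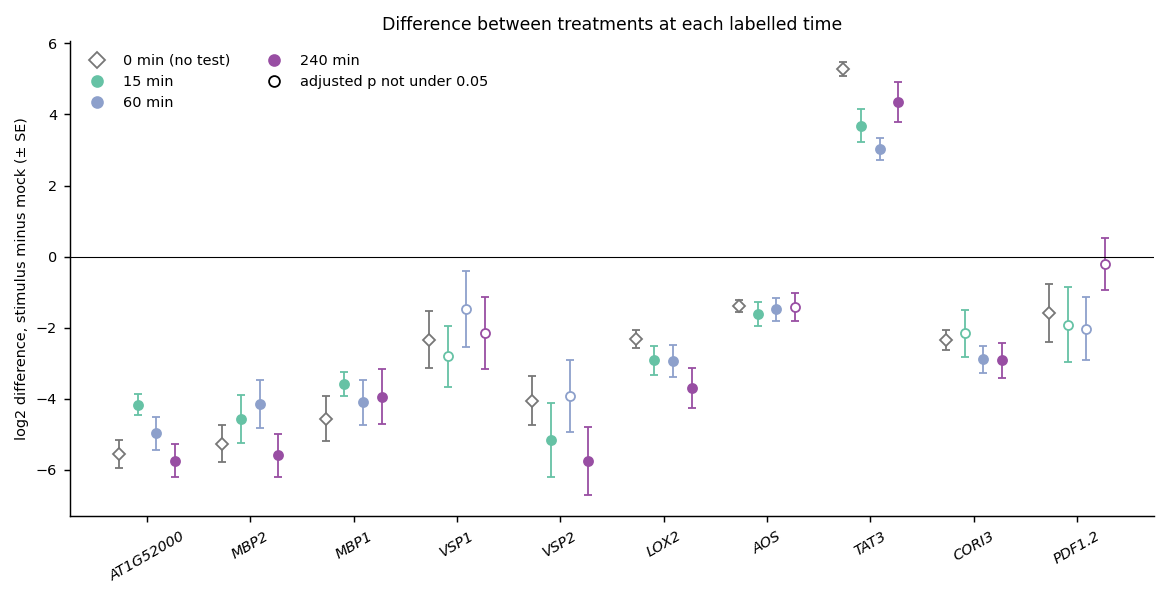
Log2 difference of stimulus minus mock for each gene at the 4 labelled times, with bars of 1 SE from the fit to 3 libraries a group. Filled circles passed the test, open circles did not, and open diamonds at 0 min carry no test. AT1G52000 lies between −4.17 and −5.74 over the tested times and TAT3 between 3.03 and 4.34.

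AT1G52000, annotated as a mannose-binding lectin superfamily protein, was lower in stimulus leaves at every later time. It had 2.32, 3.61 and 4.09 CPM in stimulus leaves at 15 min, against 70.0, 44.2 and 64.0 CPM in mock leaves. At 60 min it had 1.77, 2.75 and 0.820 CPM in stimulus leaves, against 71.2, 50.2 and 45.3 CPM in mock leaves, and at 240 min 1.80, 0.897 and 1.38 CPM, against 109, 49.7 and 54.9 CPM. No stimulus library came within a factor of 10 of the lowest mock library. The log2 difference was −4.17 ± 0.30 at 15 min, −4.97 ± 0.46 at 60 min and −5.74 ± 0.45 at 240 min (SE, adjusted p = 0.0013, 0.00395 and 0.00254). These calls remained when each library was left out in turn. In stimulus replicate 4 the gene stood at 4.09 CPM at 15 min, against 0.484 CPM at 0 min, and CORI3 (53.0 against 15.6 CPM) and MBP1 (0.906 against 0.242 CPM) were also higher in that library than in replicate 4 of 0 min.

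MBP2, which the annotation names a myrosinase-binding protein, was close to the limit of detection in stimulus leaves. Its 9 stimulus libraries after 0 min held 1 to 9 counts each, against 43 to 104 counts in the 9 mock libraries. No stimulus library reached the count minimum, so the gene entered the tests through mock leaves alone and had to differ. The fitted log2 differences, which depend on these few counts, were −4.56 ± 0.68, −4.15 ± 0.68 and −5.59 ± 0.61 at 15, 60 and 240 min (adjusted p = 0.00763, 0.014 and 0.00434). At 60 min the call was lost without stimulus replicate 2, stimulus replicate 3 or mock replicate 3 (adjusted p = 0.0513, 0.0606 and 0.0564). Without stimulus replicate 2, which held the most counts, the differences were −5.27, −4.88 and −6.31.

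Per kilobase MBP1 was more abundant than its neighbour MBP2, with medians of 0.412 against 0.0302 CPM per kb in stimulus leaves and 7.71 against 0.917 in mock leaves. At 15 min it had 1.36, 1.36 and 0.906 CPM in stimulus leaves, against 12.8, 10.0 and 20.3 CPM in mock leaves. At 60 min the stimulus libraries held 0.417, 1.58 and 0.302 CPM and the mock libraries 15.3, 10.3 and 14.2 CPM. Mock replicate 3 was the exception at 240 min, with 3.04 CPM beside 24.6 and 15.2 CPM in the other mock leaves, still above the 1.41, 0.564 and 0.877 CPM of stimulus leaves. The log2 differences were −3.58 ± 0.35, −4.10 ± 0.64 and −3.94 ± 0.78 (adjusted p = 0.00275, 0.0124 and 0.0226). Without stimulus replicate 3 the difference at 60 min was −5.21, and without mock replicate 2 that at 240 min was −3.29. Leaving out any 1 of the 3 stimulus libraries ended the call at 240 min (adjusted p = 0.0844, 0.0813 and 0.12), and stimulus replicate 2 or mock replicate 3 that at 60 min (adjusted p = 0.0691 and 0.0533).

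VSP2, a vegetative storage protein with acid phosphatase activity and a standard reporter of the MYC branch, varied widely in both treatments. At 15 min it had 18, 2 and 19 counts in stimulus leaves (0.542, 0.0485 and 0.688 CPM), against 755, 99 and 335 counts in mock leaves (26.6, 3.17 and 14.1 CPM). At 240 min it had 11, 2 and 0 counts in stimulus leaves, against 366, 252 and 96 counts in mock leaves, and the count of 0 allows up to 0.125 CPM. The groups were apart at all 3 times, and the log2 difference was −5.16 ± 1.05 at 15 min, −3.91 ± 1.01 at 60 min and −5.74 ± 0.96 at 240 min. The first and last were called (adjusted p = 0.0207 and 0.0135) and that at 60 min was not (adjusted p = 0.0616). The call at 15 min was lost without stimulus replicate 2 or mock replicate 2 (adjusted p = 0.101 and 0.0532), and that at 240 min without stimulus replicate 3 or 4 (adjusted p = 0.0556 and 0.0545). The size was uncertain too: leaving out 1 library gave −5.75 (stimulus replicate 4) to −4.38 (mock replicate 2) at 15 min and −4.62 (stimulus replicate 2) to −2.64 (mock replicate 4) at 60 min. At 240 min it gave −7.82 (stimulus replicate 2) to −5.17 (stimulus replicate 4).

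VSP1, the paralogue, was read with 0 to 30 counts in the 9 stimulus libraries after 0 min and 7 to 88 counts in the 9 mock libraries. Its log2 difference was −2.80 ± 0.86, −1.48 ± 1.06 and −2.14 ± 1.02 at 15, 60 and 240 min, and none passed (adjusted p = 0.0699, 0.505 and 0.209). Without stimulus replicate 4, the difference at 15 min was −4.07 and passed (adjusted p = 0.0181). Stimulus replicate 2 at 60 min reached 1.04 CPM, inside the mock range of 0.340 to 2.89 CPM. Mock replicate 2 at 15 min held the highest VSP1 (3.11 CPM), VSP2 and AOS (186 CPM) of all 24 libraries, and also the highest summed level of the 13 JAZ genes, 433 CPM beside 92.8 to 243 CPM in the other libraries. Any part of that library's state in these values was not tested.

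LOX2, the chloroplast 13-lipoxygenase that feeds the wound pool of jasmonate, had 1597 to 10183 counts in stimulus libraries and 22947 to 43651 in mock libraries. It had 224, 93.0 and 199 CPM in stimulus leaves at 15 min, against 1402, 931 and 1530 CPM in mock leaves. At 60 min it had 279, 109 and 137 CPM in stimulus leaves, against 1136, 1113 and 1714 CPM in mock leaves, and at 240 min 214, 72.1 and 66.7 CPM, against 1591, 1126 and 1757 CPM. Every stimulus library was below every mock library, and the fold was 7.49 at 15 min, 7.55 at 60 min and 12.7 at 240 min by the means. The log2 difference was −2.92 ± 0.40, −2.94 ± 0.45 and −3.70 ± 0.55 (adjusted p = 0.00627, 0.0112 and 0.00985). The call was lost at 60 min without mock replicate 3 (adjusted p = 0.0533) and at 240 min without stimulus replicate 4 (adjusted p = 0.0667). Without stimulus replicate 2 the difference at 240 min was −4.43.

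AOS, allene oxide synthase, which acts on the lipoxygenase product, differed less. It had 44.5, 32.2 and 49.2 CPM in stimulus leaves at 15 min, against 186, 83.2 and 114 CPM in mock leaves. The log2 difference was −1.62 ± 0.33 at 15 min and −1.49 ± 0.31 at 60 min, both called (adjusted p = 0.0207 and 0.0318). At 240 min, with 63.0, 28.7 and 30.1 CPM in stimulus leaves and 150, 87.8 and 79.7 CPM in mock leaves, it was −1.41 ± 0.39 and not called (adjusted p = 0.0602), although the groups did not overlap. Without mock replicate 4 it was −1.55 and passed (adjusted p = 0.0234). The AOS call at 15 min was lost without stimulus replicate 2 or 3 (adjusted p = 0.099 and 0.0698). The call at 60 min held in 1 of the 6 fits that left out a library, and was lost with total counts as library sizes (adjusted p = 0.129).

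TAT3, a tyrosine aminotransferase known to respond to jasmonate, was the 1 gene of the 10 that was higher in stimulus leaves. It had 22.2, 33.5 and 31.2 CPM in stimulus leaves at 15 min, against 1.66, 1.18 and 3.90 CPM in mock leaves. At 60 min the stimulus libraries held 34.9, 51.8 and 34.5 CPM and the mock libraries 6.75, 3.54 and 4.24 CPM, and at 240 min 51.6, 52.2 and 56.1 CPM, against 2.77, 0.812 and 4.30 CPM. The lowest stimulus library was above the highest mock library at each time. The log2 difference was 3.68 ± 0.47, 3.03 ± 0.32 and 4.34 ± 0.56 (adjusted p = 0.00519, 0.00455 and 0.00666), and each call remained when any 1 library was left out. Without mock replicate 4 the difference at 15 min was 4.34.

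CORI3, a cystine lyase of the same aminotransferase family that is known to respond to coronatine, a bacterial mimic of the jasmonate conjugate, went against TAT3. At 15 min it had 21.0, 9.34 and 53.0 CPM in stimulus leaves, against 146, 66.8 and 158 CPM in mock leaves, and the difference of −2.16 ± 0.66 was not called (adjusted p = 0.0711). Without stimulus replicate 4, the high one, it was −3.09 with an adjusted p of 0.0162. At 60 min it had 23.7, 16.5 and 19.1 CPM in stimulus leaves, against 122, 84.9 and 225 CPM in mock leaves, and it was −2.89 ± 0.39 (adjusted p = 0.00817). At 240 min it was −2.92 ± 0.49 (adjusted p = 0.014), with 32.2, 9.16 and 13.9 CPM in stimulus leaves and 155, 95.8 and 159 CPM in mock leaves. The CORI3 call was lost at 60 min without stimulus replicate 2 (adjusted p = 0.0524) and at 240 min without stimulus replicate 4 (adjusted p = 0.0929). Without stimulus replicate 2 the difference at 240 min was −3.57.

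PDF1.2, an antifungal defensin and the marker of the ERF branch, was barely expressed and did not separate the treatments at any labelled time. Over all 24 libraries it had 0.181 to 1.43 CPM in stimulus leaves, with a median of 0.417, against 0.141 to 4.19 CPM in mock leaves, with a median of 0.613. Its log2 difference was −1.92 ± 1.06, −2.03 ± 0.88 and −0.20 ± 0.73 at 15, 60 and 240 min (adjusted p = 0.272, 0.24 and 0.881). Leaving out 1 library moved it between −2.45 and −0.03 at 15 min and between −0.69 and 0.69 at 240 min, with both signs at 240 min.

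The time course also asks how the share of each RNA changed after cordycepin was added. The libraries of 0 min, whose values chose the genes, enter these slopes. In stimulus leaves 1 of the 9 genes tested had a slope that passed, TAT3, and it was upward at 0.16 ± 0.05 log2 units per hour (adjusted p = 0.0449 by edgeR's quasi-likelihood test, where 8.73% of 21530 features were called upward and 11.8% downward). MBP2 was too low in stimulus leaves to be tested. TAT3 was higher at 240 min than at 0 min in all 3 stimulus series, with log2 changes of 0.62, 0.15 and 0.49. Its call was lost without replicate 2 or 4 (adjusted p = 0.321 and 0.144), from 0 to 60 min only (0.703), with no filter (0.0647), with total counts (0.215) and without the libraries of high clock score (0.281). These are changes in share of the library, since no spike-in or stable reference was used.

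In mock leaves 0 of the 10 genes had a slope that passed by edgeR, with 0.0% of 21195 features called, and none had an unadjusted p under 0.05. DESeq2 called 0 of the 10 too. The difference in slope between treatments was called for 0 of the 10 genes and for 0.0% of 22307 features. LOX2 had the smallest p of the 10, with a slope of −0.19 ± 0.11 log2 units per hour in stimulus leaves and 0.10 ± 0.07 in mock leaves, a difference of −0.28 ± 0.13 (unadjusted p = 0.0401, adjusted p = 0.673). From 0 to 240 min LOX2 changed by −0.35, −1.62 and −1.23 log2 units in stimulus replicates 2, 3 and 4, against 0.49, 0.57 and 0.49 in mock replicates. Without the libraries of high clock score the LOX2 slopes were −0.005 ± 0.092 in stimulus leaves and 0.009 ± 0.066 in mock leaves, and their difference was −0.01 ± 0.12 (adjusted p = 0.965). At 240 min that setting kept only stimulus replicate 2 and mock replicates 2 and 3, whose time labels sat poorly with RNA loss in mock leaves. It removed most late stimulus libraries, so it cannot tell clock state from time. AT1G52000 had slopes of −0.17 ± 0.15 in stimulus leaves and 0.08 ± 0.07 in mock leaves, and MBP1 of 0.09 ± 0.16 and 0.08 ± 0.14. None of these passed the test. The mock series whose time labels conflicted with RNA loss bear on these slopes, and their part was not tested.

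**Figure D3:**
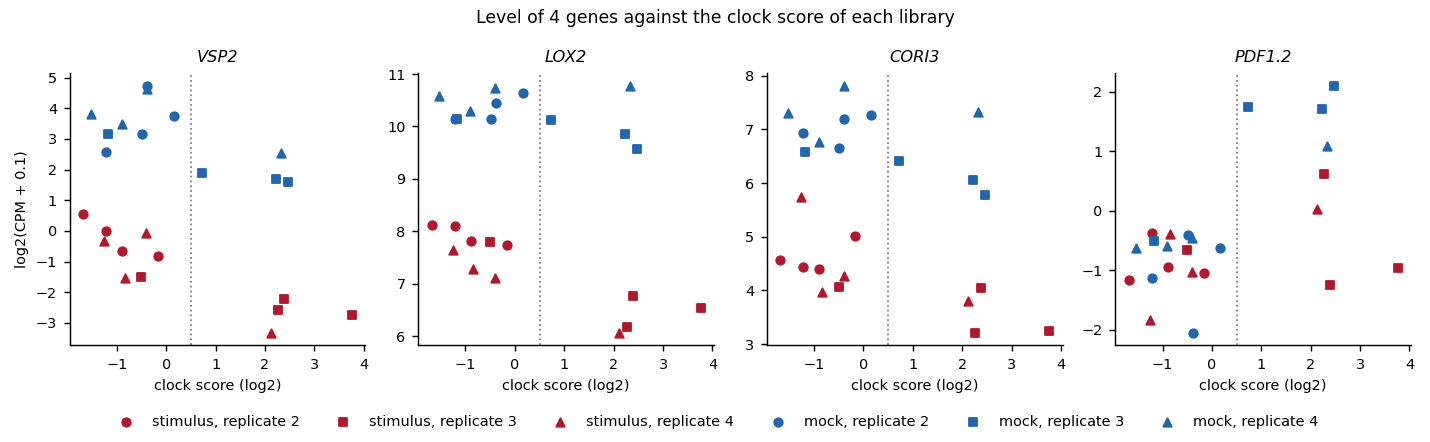
Level of VSP2, LOX2, CORI3 and PDF1.2, as log2 of CPM plus 0.1, against the clock score of each library, with stimulus in red and mock in blue, symbols for the replicate number and a dotted line at the split of 0.5. Right of the line VSP2 sits lower within each treatment and PDF1.2 sits higher in mock leaves. Red lies below blue for VSP2, LOX2 and CORI3 over all libraries, and hence on both sides.

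VSP2, VSP1, LOX2 and PDF1.2 are described by clock score, whose split was chosen after its values were seen. The share of all features that separate by score was not counted, so no such separation is shown to be particular to these genes. VSP1 in stimulus leaves had a median of 0.0802 CPM in the 4 libraries of high score and 0.429 CPM in the other 8, with overlapping ranges. VSP2 lay between 0 and 0.117 CPM in the 4 stimulus libraries of high score, against 0.242 to 1.36 CPM in the other 8 stimulus libraries. In mock leaves it lay between 2.93 and 5.74 CPM in the 4 of high score and between 5.89 and 26.6 CPM in the other 8. LOX2 in stimulus leaves was at 66.7 to 109 CPM with a high score and 137 to 279 CPM with a low one, while its mock ranges overlapped. PDF1.2 went the other way in mock leaves, with 2.03 to 4.19 CPM in the 4 libraries of high score and 0.141 to 0.649 CPM in the other 8. In stimulus leaves it had 0.322 to 1.43 CPM with a high score and 0.181 to 0.669 CPM with a low one. Among libraries of high score the treatments thus did not overlap for PDF1.2, nor for VSP1 (0 to 0.133 CPM in stimulus against 0.340 to 1.09 CPM in mock leaves). Among the others both genes overlapped. AT1G52000, MBP2, MBP1, VSP2, LOX2, AOS and CORI3 were lower in every stimulus library than in any mock library on both sides, and TAT3 higher. This follows from their lack of overlap over all 12 against 12 libraries (7.0% of 19281 features lower and 5.31% higher). The split is therefore no further test, and those libraries include the 0 min values that chose the genes. The score was not spread evenly over times, so time and score cannot be told apart within a replicate series.

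Of the other jacalin and nitrile-specifier genes, 10 of 38 were high enough to be tested, and those called were all lower in stimulus leaves: 4 at 15 min, 5 at 60 min and 5 at 240 min (8.81%, 5.08% and 7.39% of all features were lower). The median log2 difference of the 10 was −1.23, −1.57 and −1.76 at 15, 60 and 240 min, beside 0.01, 0.03 and −0.01 over all features. JR1 (AT3G16470), a jasmonate-responsive jacalin, averaged 1.63 ± 0.19 CPM in stimulus leaves and 25.5 ± 6.48 CPM in mock leaves at 15 min (SD, n = 3 each). Its log2 difference there was −3.98 ± 0.26 (adjusted p = 0.00108) and at 240 min −4.53 ± 0.43 (adjusted p = 0.00348). JAL34 (AT3G16460) averaged 2.27 ± 0.21 CPM in stimulus leaves and 17.4 ± 5.50 CPM in mock leaves at 60 min, and fell by 2.97 log2 units (SE 0.33, adjusted p = 0.00472). NSP1, a nitrile-specifier protein that steers glucosinolate breakdown and carries a jacalin domain, did not pass at 60 min (−0.25 ± 0.33, adjusted p = 0.747). JR1, JAL34, PBP1 and AT1G19715 were called lower at all 3 later times.

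The myrosinases TGG1 and TGG2 did not pass at 15, 60 or 240 min by edgeR. TGG1, one of the pair of leaf myrosinases, averaged 1388 ± 182 CPM in stimulus leaves and 1725 ± 179 CPM in mock leaves at 15 min, a log2 difference of −0.33 ± 0.21 (adjusted p = 0.332). Of the 8 myrosinase and associated genes tested at 15 min, 2 were lower and 0 higher, and the same 2 were lower at 60 and 240 min (8.81%, 5.08% and 7.39% of all features were lower at 15, 60 and 240 min). These were ESP, the epithiospecifier protein, and ESM1, its modifier. ESP averaged 9.89 ± 3.25 CPM in stimulus leaves and 40.6 ± 10.7 CPM in mock leaves at 60 min, a log2 difference of −2.08 ± 0.31 (adjusted p = 0.0108).

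**Figure D4:**
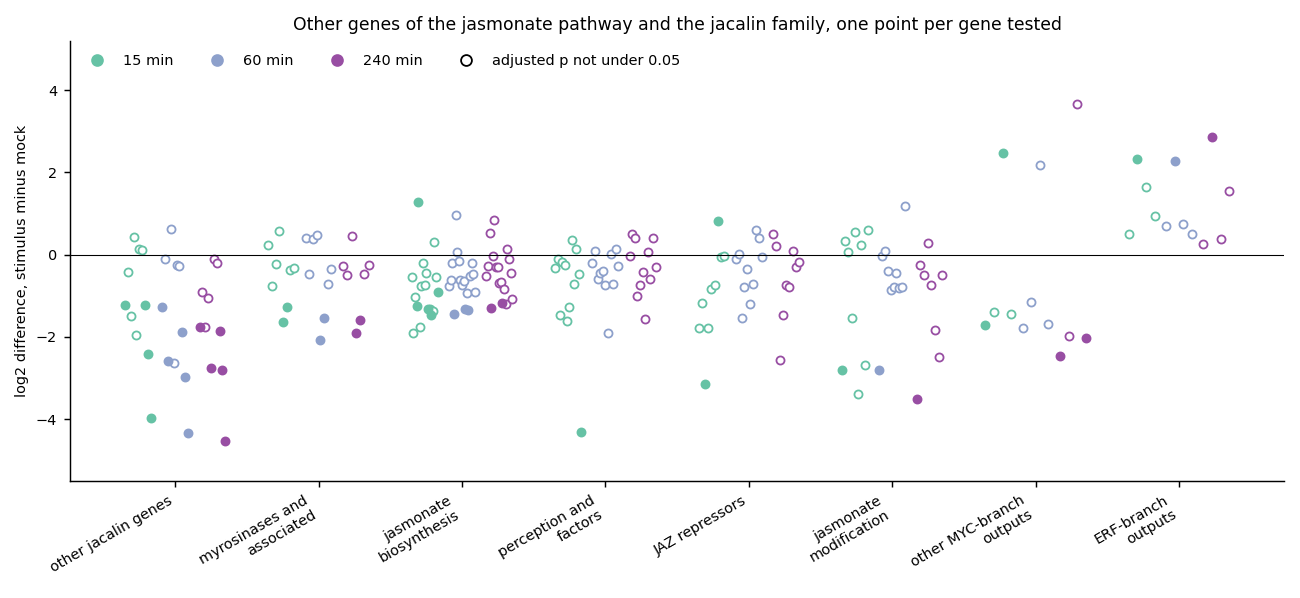
Log2 difference of stimulus minus mock for each tested gene of 8 lists, one point per gene and time, at 15, 60 and 240 min and without the 10 genes themselves. Filled points passed the test. In the jacalin list the filled points all lie below 0, and in the list of ERF-branch outputs PR4 is the filled point at each time.

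In a list drawn up for jasmonate synthesis, without LOX2 and AOS, 17 of 18 genes were tested. At 15 min 4 were lower and 1 higher (8.81% and 7.12% over all features), at 60 min 3 were lower (5.08%), and at 240 min 2 were lower (7.39%). AOC2, allene oxide cyclase and the next enzyme after AOS, averaged 38.9 ± 3.61 CPM in stimulus leaves and 106 ± 7.62 CPM in mock leaves at 15 min (−1.46 ± 0.14, adjusted p = 0.0025). LOX6, another 13-lipoxygenase, averaged 9.52 ± 0.75 CPM in stimulus leaves and 25.5 ± 2.00 CPM in mock leaves at 60 min (−1.45 ± 0.19, adjusted p = 0.00706), and at 240 min it differed by −1.29 ± 0.25 (adjusted p = 0.0213). The gene of that list that was higher was AT1G70480, at 38.4 ± 7.67 CPM in stimulus leaves and 15.6 ± 3.89 CPM in mock leaves at 15 min (1.29 ± 0.23, adjusted p = 0.0143). It has no gene symbol beyond its locus number here, and its place in jasmonate synthesis was not checked, so no synthesis step is shown to rise. FAD7, a chloroplast fatty acid desaturase named after its values were seen, was called lower at 15, 60 and 240 min. How reads shared by the close AOC copies were counted is not given in the sources used here.

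Among the 12 tested perception genes and factors, 1 was lower at 15 min, where 8.81% of all features were, and 0 of 11 passed at 60 or 240 min by edgeR (1 at each time had an unadjusted p under 0.05). At 0 min, given without a test, MYC2, the factor that binds G-boxes of VSP2 and LOX2, averaged 15.3 ± 1.85 CPM in stimulus leaves and 34.5 ± 7.23 CPM in mock leaves (SD, n = 3 each), and COI1, the receptor, 28.4 ± 2.08 CPM in stimulus leaves and 36.6 ± 3.71 CPM in mock leaves. The gene called at 15 min was NIG1 (MYC5), at 0.101 ± 0.057 CPM in stimulus leaves and 2.12 ± 1.03 CPM in mock leaves (−4.32 ± 0.67, adjusted p = 0.00852). Its stimulus mean was below the count minimum (0.35 CPM), so it could not have entered the test through stimulus leaves alone. Of 9 JAZ repressors tested at 15 min, TIFY7 (JAZ9) was lower (−3.16 ± 0.82, adjusted p = 0.0446) and JAZ11 higher (0.81 ± 0.15, adjusted p = 0.016), where 8.81% and 7.12% of all features were. TIFY7 averaged 3.5 ± 2.2 CPM in stimulus leaves and 31.1 ± 30.1 CPM in mock leaves (SD, n = 3 each). The summed JAZ level at 15 min was 433 CPM in mock replicate 2, beside 121 and 97.4 CPM in mock replicates 3 and 4. By edgeR 0 of 10 JAZ repressors passed at 60 min and 0 of 9 at 240 min (0 and 1 at an unadjusted p under 0.05).

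At 15, 60 and 240 min, 9, 10 and 8 genes that modify or inactivate jasmonate were tested. The 1 called at each time was JMT, which methylates jasmonate, and it was lower (8.81%, 5.08% and 7.39% of all features were lower). It averaged 0.355 ± 0.049 CPM in stimulus leaves and 2.49 ± 1.07 CPM in mock leaves at 15 min (−2.81 ± 0.46, adjusted p = 0.00964). At 60 and 240 min it differed by −2.81 ± 0.60 and −3.52 ± 0.66 (adjusted p = 0.0331 and 0.02). Its stimulus means then, 0.275 and 0.191 CPM, were below the count minimum, which equalled 0.372 and 0.382 CPM. The mean at 15 min was close to that minimum (0.35 CPM). JMT could not have entered the later 2 tests through stimulus leaves alone, so its direction there is no added support. Of the 4 other MYC-branch outputs tested, CLH1, a chlorophyllase, was lower at 15 min (−1.72 ± 0.42, adjusted p = 0.0362) and at 240 min (−2.45 ± 0.63, adjusted p = 0.0486), and ARGAH2, an arginase, at 240 min (−2.03 ± 0.37, adjusted p = 0.0178). TPS04, which makes a volatile terpene alcohol, was higher at 15 min, at 2.43 ± 1.04 CPM in stimulus leaves and 0.428 ± 0.302 CPM in mock leaves (2.48 ± 0.60, adjusted p = 0.0355). It shared the direction of TAT3.

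In the ERF branch, PR4, a chitin-binding defence protein, was higher at 15, 60 and 240 min while PDF1.2 did not pass. PR4 averaged 4.98 ± 0.44 CPM in stimulus leaves and 0.974 ± 0.394 CPM in mock leaves at 15 min (2.33 ± 0.35, adjusted p = 0.00771). At 60 and 240 min it differed by 2.28 ± 0.54 and 2.87 ± 0.60 (adjusted p = 0.045 and 0.027). The other 3 tested genes of that list, LCR67, HCHIB and ERF1, had positive differences that did not pass at these times. ORA59, an ERF that activates PDF1.2, was too low to be tested then, and at 0 min averaged 0.233 ± 0.123 CPM in stimulus leaves and 0.873 ± 0.389 CPM in mock leaves.

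The genes whose pattern over the 24 libraries came closest to AT1G52000 were found by the root mean square difference of centred log2 CPM, among features of at least 10 CPM on average. They were HOL1 (0.78), a methyltransferase that makes methyl halides, JR1 (0.78), CPD (0.83), GSTU27 (0.87) and KT2/3 (0.87). CPD, a brassinosteroid synthesis enzyme, lay between 1.08 and 2.93 CPM in stimulus leaves, against 17.1 to 35.6 CPM in mock leaves. For VSP2 the closest were AT3G28220 (1.02), LHCB2.3 (1.29), JR1 (1.34), MAM1 (1.35) and KT2/3 (1.44), less close than for AT1G52000. Among the 10 genes the nearest pair was LOX2 and CORI3 (0.47), and MBP2 was the nearest to AT1G52000 (0.80). The centred values include the difference between treatments, and the likeness is a description only.

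The labelled tissue was checked with marker genes. Summed over 4 mesophyll genes, the level was 4803 to 12265 CPM in stimulus leaves, against 8826 to 27076 CPM in mock leaves, and over 3 epidermis genes 188 to 355 CPM, against 330 to 487 CPM. Over 5 guard and myrosin cell genes, with TGG1 and TGG2 among them, it was 1556 to 2560 CPM in stimulus leaves, against 1812 to 4147 CPM in mock leaves, and over 3 phloem genes 62.4 to 131 CPM, against 39.0 to 83.8 CPM. The floral genes AP1 and AP3 were at or near 0 (at most 0.12 CPM), and over 5 floral genes the level was 1.51 to 4.30 CPM in stimulus leaves, against 1.57 to 5.14 CPM in mock leaves. The median sums of mesophyll (7767 against 15755 CPM), epidermis (262 against 395) and guard and myrosin cell genes (1769 against 2117) were lower in stimulus leaves. That of phloem genes was higher (89.2 against 72.2 CPM), and all these ranges overlapped. Mesophyll, epidermis and guard and myrosin cell markers thus moved in the direction of LOX2 and the lectins, and their part in those differences was not tested. In whole leaves fewer cells of a type and less RNA per cell cannot be told apart.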

How the data were processed

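The authors deposited whole-number read counts per gene from stranded, ribosome-depleted total RNA read in 50 cycles, per the labels' protocols. TopHat2, Bowtie2 and TAIR10 are named in the submitters' processing notes, and the counting tool and annotation are not given in the sources used here. Of 38194 features, 37751 matched the RefSeq TAIR10.1 annotation, which gave names, coordinates and promoters. The table has 24 sample columns and 0 other per-sample columns.

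Counts were tested as deposited in edgeR 4.0.16 (TMM, filterByExpr with a minimum count of 10, robust quasi-likelihood F test) with Benjamini-Hochberg adjustment over all features at 0.05. Each time was fitted on its 6 libraries, and slopes on the 12 libraries of a treatment against labelled hours. SE is the log2 value over the square root of F. No decay factor was applied, because no list of stable transcripts was used here. CPM used TMM sizes, with a prior count of 0.5 for log2. DESeq2 1.42.0 was an alternative (R 4.3.3, Python 3.11.15). On simulated counts the 60 min test recovered 5% of changes of 1 log2 unit and 61% of changes of 2 (20164 genes, 100 of each size), so differences near 1 log2 unit could mostly not be called there.

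Same-numbered stimulus and mock libraries deviated together at 15 min (r = 0.357, 0.543 and 0.678 for numbers 2, 3 and 4), from the data and not the labels, so the blocked result is given beside that time.

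The members and lists were chosen with earlier results of these data known. From each list the gene with the smallest adjusted p in each direction was named per later time. JR1 at other times, PBP1, AT1G19715, NSP1, TGG1, ESM1, COI1, MYC2, FAD7, ORA59, LCR67, HCHIB and ERF1 were named after their values were seen.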

Additional observations from a re-analysis of the deposited data

Results flagged for a closer look

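LOX2 had log2 changes of opposite sign in stimulus and mock leaves over the cordycepin period. Between 0 and 240 min its median log2 change was −1.225 in the 3 stimulus series, all of which were lower at the end, and 0.487 in the 3 mock series, all of which were higher. The test of the difference in slope did not pass (−0.28 ± 0.13 log2 units per hour, adjusted p = 0.673 by edgeR's quasi-likelihood test). Stimulus replicates 3 and 4 and mock replicate 4 at 240 min had high clock scores. Without the 8 libraries of high score, a setting chosen after seeing the data, the LOX2 slope was −0.005 ± 0.092 in stimulus leaves and 0.009 ± 0.066 in mock leaves. The difference was then −0.01 ± 0.12 (adjusted p = 0.965). At 240 min that setting kept only stimulus replicate 2 and mock replicates 2 and 3, so it cannot tell clock state from the loss of late libraries.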

How the results depend on the processing

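Of the single-gene values, 606 counted as unchanged under the planned settings, 28 lost a call, 16 gained one, 30 changed sign and 2 moved. Unchanged means the same direction and side of the threshold for later times and slopes. For the untested 0 min values it means a shift smaller than the SD between replicates. Among settings added after seeing the data, 67 were unchanged, 15 lost a call, 15 changed sign and 1 moved. In 0 of the sign changes did either fit pass the test. With total counts the median of all features was 0.34 and 0.43 log2 units at 15 and 60 min, against 0.01 and 0.03 with TMM, and calls at 15 min numbered 4997 (3798 higher, 1199 lower, against 1471 and 1819); at 0, 60 and 240 min the split was 8339 and 4120, 1504 and 593, and 2288 and 869, against 5407 and 6040, 541 and 1043, and 791 and 1503. With total counts the called genes kept their directions.

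Counts of features called moved most. DESeq2 called 2873 at 60 min, 4069 at 240 min, 7111 for the stimulus slope and 7 for the difference in slope. One fit of all 24 libraries called 5119 at 0 min, 4444 at 60 min and 6279 at 240 min. The replicate block gave 5501 at 15 min, 3578 at 240 min and 7358 for the stimulus slope, where LOX2 became the 1 gene of the 10 called downward (−0.23, adjusted p = 0.0292), against −0.005 (adjusted p = 0.975) without the libraries of high clock score. Blocked, VSP2 at 60 min and AOS at 240 min were called (adjusted p = 0.0288 and 0.00557). At 0, 60 and 240 min same-numbered libraries did not all deviate together. For numbers 2, 3 and 4, r was 0.143, −0.106 and 0.797 at 60 min and −0.14, 0.604 and 0.617 at 240 min. Some of these values are as high as those at 15 min, so pairing at these times is unclear. The stimulus slope had 2646 calls with no filter and 0 from 0 to 60 min, and the 1 member called upward, TAT3, became 0 with total counts, no filter or 0 to 60 min.

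The values that changed sign were these, in log2 units, per hour for slopes. With total counts, the stimulus slope was −0.052 for AOS. With total counts, the difference in slope was −0.02 for MBP1 and −0.006 for AOS. With total counts, the 240 min difference was 0.294 for PDF1.2. With the replicate block, the mock slope was 0.065 for VSP2 and 0.087 for PDF1.2. From 0 to 60 min only, the mock slope was −0.064 for AT1G52000, 0.283 for VSP2 and 0.357 for AOS. From 0 to 60 min only, the stimulus slope was 0.813 for VSP1, 0.826 for VSP2 and −0.646 for PDF1.2. From 0 to 60 min only, the difference in slope was 0.066 for AT1G52000, 0.915 for MBP2, 0.568 for VSP2, −0.022 for AOS, −1.888 for TAT3 and −0.387 for PDF1.2. Without the libraries of high clock score, the mock slope was 0.0 for MBP1, −0.071 for TAT3, −0.018 for CORI3 and 0.061 for PDF1.2. Without the libraries of high clock score, the stimulus slope was 0.241 for VSP1, 0.024 for VSP2, 0.1 for CORI3 and −0.127 for PDF1.2. Without the libraries of high clock score, the difference in slope was 0.141 for MBP2, 0.144 for VSP2, 0.12 for CORI3 and −0.18 for PDF1.2. Leaving out 1 library or replicate number, the mock slope ran from −0.012 to 0.142 for AT1G52000, −0.125 to 0.176 for MBP1, −0.479 to 0.37 for PDF1.2, −0.164 to 0.066 for VSP2 and −0.057 to 0.037 for AOS. Leaving out 1 library or replicate number, the stimulus slope ran from −0.097 to 0.055 for AOS, −0.124 to 0.043 for VSP1 and −0.248 to 0.06 for CORI3. Leaving out 1 library or replicate number, the difference in slope ran from −0.127 to 0.139 for VSP1, −0.045 to 0.082 for AOS, −0.007 to 0.109 for TAT3, −0.258 to 0.716 for PDF1.2 and −0.141 to 0.123 for MBP1. Leaving out 1 library or replicate number, the 240 min difference ran from −0.687 to 0.691 for PDF1.2.

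Without the libraries of high clock score, chosen after seeing the data, 52 of 20954 features were called at 15 min, 25 lower and 27 higher. Of the members, 2 were lower there and 0 higher. The setting called 0 features at 60 min and 0 for the stimulus slope (0 members in each). The 6172 calls at 240 min compare 1 stimulus library with 2 mock libraries, the lone one assumed to vary like the others.

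Leaving out 1 library gave 9760 to 11501 features at 0 min. At 15 min it gave 883 (without stimulus replicate 2) to 4489 (without stimulus replicate 4), with 4 to 8 members lower. At 60 min it gave 172 (without stimulus replicate 2) to 1505, with 2 to 5 members lower, and at 240 min 242 (without stimulus replicate 4) to 7876 (without mock replicate 4), with 2 to 7 lower. TAT3 was the 1 higher member in each. The stimulus slope ranged from 0 (without replicate 2) to 4157 features, with 0 to 1 member higher. The cause of these shifts was not tested. The planned decay factors were not run. The MBP2 slope in stimulus leaves could be fitted only with no filter and is not compared.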
